A study of Rattus norvegicus with 16 samples.

Results

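The CXC and CX3C chemokines described here are 9 genes, Cxcl1, Cxcl2, Cxcl9, Cxcl10, Cxcl11, Cxcl12, Cxcl13, Cxcl16 and Cx3cl1, chosen by name. They were read by 10 of the 30367 probes on the array, 1 probe for each gene and 2 for Cxcl12, and all 10 were among the 22827 probes tested. Whole hippocampus from adult male Sprague-Dawley rats was taken 24 h after severe fluid percussion injury, a model of traumatic brain injury (TBI) in which a pulse of fluid strikes the exposed dura, or at a matching time. The arrays are labelled as replicates, and the methods count rats, so 1 array is read here as 1 rat. The groups were Naive (3 rats, with no injury and no treatment), Sham (2 rats, anesthetized and prepared but uninjured), TBI (3 rats, injured with no drug), TBI+PMI (3 rats) and TBI+JM6 (3 rats), both injured and given the compound by oral gavage, and TBI+E33 (2 rats, injured and given estrogen). Estrogen was given under the skin per the labels and into the peritoneum per the study's methods, no vehicle is stated for the TBI rats, and the TBI and drug-treated rats share the injury, with isoflurane as the anesthetic. Tissue was the whole microdissected hippocampus, and 2 RNA amplification kits were in use, with no record here of which array had which.

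Chemokines are small secreted proteins that guide leukocytes through G protein-coupled receptors. CXC chemokines with a Glu-Leu-Arg motif, Cxcl1 and Cxcl2 among them, draw neutrophils through Cxcr2, and their genes are classical targets of NF-kB. Cxcl9, Cxcl10 and Cxcl11 are induced by interferons and draw activated T cells and NK cells through Cxcr3, Cxcl12 acts through Cxcr4 and the scavenger Cxcr7, Cxcl13 draws B cells through Cxcr5, and Cxcl16 binds Cxcr6. Cx3cl1 (fractalkine) is made by neurons, is held at the cell membrane or shed by the proteases Adam10 and Adam17, and acts on the microglial receptor Cx3cr1.

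The promoters of Cxcl1, Cxcl2 and Cxcl10 are shown because these are the members whose upstream sequence held a match to an NF-kB or an interferon response motif. In the RefSeq table of GRCr8 promoters, all 9 members had an entry, and the 250 bases before each start were searched on both strands for an NF-kB motif (GGG, then 2 bases of any kind, then TTTCC) and an interferon response motif (TTTC, then 2 bases of any kind, then TTTC). The NF-kB motif was found in 1.3% of 33469 promoters and in 2 members, Cxcl1 and Cxcl2, each with 2 matches, and 0.0209% of all promoters held 2 or more. The interferon response motif was found in 3.41% of promoters and in 1 member, Cxcl10. No match overlapped another, and capitals mark the matches in the sequences, which are written 5′ to 3′ on the strand of the gene.
Cxcl1 (chr14:17479322-17479571, minus strand): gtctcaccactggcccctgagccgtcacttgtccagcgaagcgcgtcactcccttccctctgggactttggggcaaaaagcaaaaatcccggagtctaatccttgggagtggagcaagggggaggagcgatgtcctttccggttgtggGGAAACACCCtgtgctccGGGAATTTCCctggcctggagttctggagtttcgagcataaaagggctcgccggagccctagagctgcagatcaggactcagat
Cxcl2 (chr14:17467256-17467505, minus strand): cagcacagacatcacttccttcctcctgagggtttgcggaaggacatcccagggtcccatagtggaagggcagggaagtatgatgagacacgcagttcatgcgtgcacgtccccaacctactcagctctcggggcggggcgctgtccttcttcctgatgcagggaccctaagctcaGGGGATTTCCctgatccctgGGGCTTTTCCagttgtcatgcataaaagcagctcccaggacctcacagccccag
Cxcl10 (chr14:15988816-15989065, plus strand): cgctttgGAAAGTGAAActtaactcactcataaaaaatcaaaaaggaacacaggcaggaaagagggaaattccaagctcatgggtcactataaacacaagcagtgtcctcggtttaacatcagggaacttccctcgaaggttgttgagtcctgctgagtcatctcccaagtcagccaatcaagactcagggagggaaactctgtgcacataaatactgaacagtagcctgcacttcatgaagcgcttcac

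The matches lay at -102 to -93 and -84 to -75 from the start in Cxcl1, at -74 to -65 and -54 to -45 in Cxcl2, and at -243 to -234 in Cxcl10. The letters describe these windows and do not show that a factor was bound. Other forms of the 2 motifs were not searched, so a promoter without a match may still hold such a site.

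**Figure D1:**
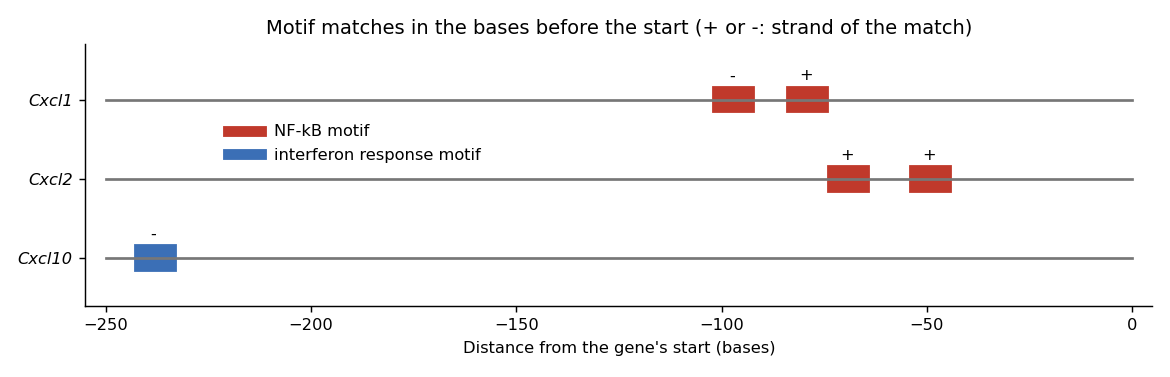
Matches to the 2 motifs in the 250 bases before the start of 3 members, as boxes along the distance from the start (x axis, bases), with the strand of each match above its box. The 4 NF-kB matches lie between -102 and -45 in Cxcl1 and Cxcl2, and the 1 interferon response match lies at -243 to -234 in Cxcl10.

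Signals are given as log2 of the intensity of a probe over the 75th percentile of the probes well above background on its array, so that 0 is the level of that percentile. A probe counts as well above background where the scanner software called its signal higher than the local background. The Naive, Sham and TBI arrays, with 16282 to 18245 probes well above background, were scanned in one session, and the 8 arrays of drug-treated rats, with 20259 to 24984, in another. An effect of a drug and an effect of the session therefore cannot be told apart. Of the 9272 probes well above background on no Naive, Sham or TBI array, 974 (10.5%) were above it on all 8 drug arrays, and of the 3585 above background on no drug array, 0 were above it on all 8 of the others. Neuron markers (6 or 7 of 7) and astrocyte markers (6 of 6) were above background on every array. All 6 choroid plexus markers were above background on Naive 2, Sham 1 and TBI+PMI 1, where their summed ratio was 76.7, 122 and 151, against 0.191 to 7.61 on the other arrays. The labels do not say that arrays come from separate animals, and p-values measure the spread between these arrays.

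**Figure D2:**
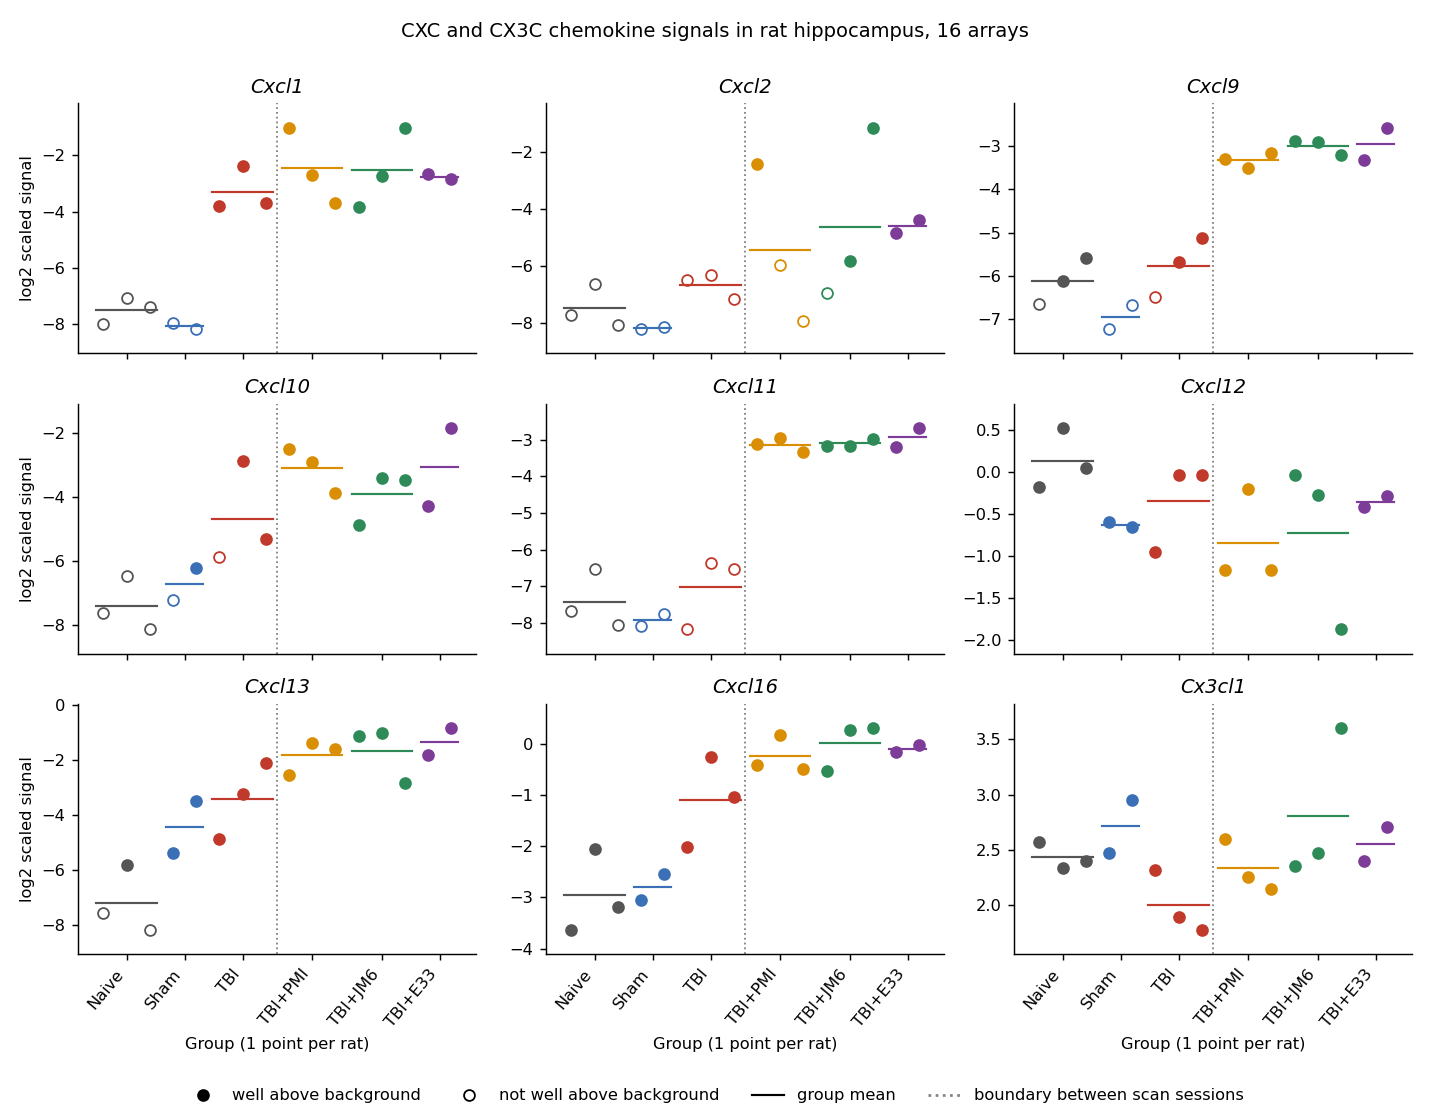
Log2 scaled signal (y axis) of each member on the 16 arrays, 1 point per rat, ordered by group (x axis). Filled points are well above background and open points are not, short lines are group means, and the dotted line separates the 2 scan sessions. Cxcl1 is open in all 5 Naive and Sham rats and filled in all 11 injured rats, and Cxcl11 is filled in the 8 drug-treated rats alone.

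The comparison of TBI with Sham asks what the injury adds to anesthesia and surgical preparation. Cxcl1 rose at least 8.1-fold, and it was the only one of the 9 members to pass the test, with Cxcl16 (3.23-fold) just outside it. Across all tested probes, 9.41% passed, and 2.93% did so in the higher direction. Both Sham arrays lay on one slide and all 3 TBI arrays on another, with Naive arrays on each, and with slide as a fixed block the passing probes went from 2146 to 60, so that slide and injury are separated here only through the Naive arrays. Of the members, 5 lay higher in every TBI rat than in both Sham rats (17.7% of all probes did) and 1 lower (24.2%). The median difference of the members was 1.18 on the log2 scale, or 1.04 over the 7 with a level when genes below background in one group are set to their bound, and that of all probes was -0.03. In bulk tissue, more cells of a type and more RNA per cell cannot be told apart.

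Cxcl1, the neutrophil attractant also known as Gro or KC, was read by a probe at chr14:18690468-18690527 (rn4, minus strand) that is printed in 10 spots on each array. Its log2 signal was -7.99, -7.07 and -7.36 in Naive rats and -7.93 and -8.17 in Sham rats. In TBI rats it was -3.79, -2.40 and -3.71. The 5 uninjured rats were not well above background and the 3 TBI rats were, with no overlap. TBI was at least 8.1-fold above Sham (fitted log2 difference 4.75, SE 0.79, adjusted p = 0.00737) and at least 6.72-fold above Naive (4.18, SE 0.71, adjusted p = 0.00939). The call against Sham was lost with a normexp background correction (1.85, adjusted p = 0.397), in a fit of the TBI and Sham arrays alone (adjusted p = 0.0811), with the slide as a fixed block (4.58, adjusted p = 0.282), with the adjusted t-test of the methods (adjusted p = 0.294) and without the 3 arrays rich in choroid plexus signal (4.87, adjusted p = 0.0516). On the slide that holds the TBI rats the only Naive array is Naive 3, from which TBI differed by 4.07 (adjusted p = 0.0893, with that array assumed to vary like the other groups).

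Some neutrophil markers were also higher in the TBI rats. Of the 6 listed, S100a8, S100a9 and Csf3r were tested, and 2 of these 3 passed in TBI vs Sham, both higher. After quantile normalization 1 passed, and by the t-test of the methods 0 did. Elane was above background on 1 array, Sham 1, and Mpo and Mmp8 on 0 of 16. The summed ratio of the list was 0.0883 to 0.114 in Naive, 0.193 in Sham 2 and higher in Sham 1, where the Elane probe was at a log2 signal of 0.45, and 0.346 to 2.96 in TBI rats. Monocyte markers summed to 0.999 to 1.12 in Naive, 1.25 and 1.82 in Sham, and 2.19 and 7.59 in the 2 TBI rats with all 4 markers measured. The part of these cells in the Cxcl1 signal was not tested.

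Over the 8 Naive, Sham and TBI arrays, the genes whose signal was most like that of Cxcl1 were Hmox1 (heme oxygenase, Pearson r = 0.974), RGD1563319 (0.973), an unnamed probe, A_64_P076595 (0.971), Fosl1 (a subunit of the AP-1 factor, 0.971) and Lcn2 (lipocalin, an iron-binding acute phase protein, 0.970), among 15176 candidate probes. These arrays share the split between injured and uninjured rats, so the values are a description.

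Cxcl2, the closest relative of Cxcl1 in this set, was read by 1 spot at chr14:18677165-18677224 (rn4, minus strand). In Naive rats its log2 signal was -7.72, -6.62 and -8.05, in Sham rats -8.21 and -8.13, and in TBI rats -6.47, -6.32 and -7.17. The TBI rats lay above both Sham rats and overlapped the Naive rats, but none of these 8 arrays was well above background, so no fold is given (adjusted p = 0.569 vs Sham). Cxcl1 and Cxcl2 thus differed in detection in the same 3 TBI rats, 3 of 3 against 0 of 3, on probes of unequal spot number.

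The interferon-inducible ligands lie side by side on chromosome 14. Cxcl10 was read at chr14:17267994-17268053 (rn4, plus strand). Its log2 signal was -7.62, -6.46 and -8.13 in Naive rats and -7.23 and -6.21 in Sham rats, of which Sham 2 alone was well above background. In TBI rats it was -5.88, -2.88 and -5.30, with TBI 2 and TBI 3 above background. Every TBI rat lay above every uninjured rat, and TBI 2 stood far above TBI 1 and TBI 3. The difference was 2.03 against Sham (SE 0.91, adjusted p = 0.178) and at least 2.56-fold against Naive (fitted 2.72, SE 0.81, adjusted p = 0.0762). Neither passed, and against Naive the call was made without TBI 1 (adjusted p = 0.0352).

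Cxcl9 (chr14:17288831-17288890, rn4, plus strand) was at -6.65, -6.11 and -5.58 in Naive rats and -7.23 and -6.67 in Sham rats. In TBI rats it was at -6.48, -5.68 and -5.12. It was above background in Naive 2, Naive 3, TBI 2 and TBI 3, and the TBI and Naive rats overlapped. TBI lay at least 1.47-fold above Sham (fitted 1.18, SE 0.39, adjusted p = 0.0736) and differed by 0.35 from Naive (SE 0.35, adjusted p = 0.632).

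Cxcl11 (chr14:17252192-17252251, rn4, plus strand) was not well above background in any Naive, Sham or TBI rat, at -8.18 to -6.36, so no fold is given. The interferon genes themselves, Ifng and Ifnb1, were above background on 0 of 16 arrays.

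The genes most like Cxcl10 over the same 8 arrays were Glis2 (r = 0.995), Adss (0.991), Srm (0.990), Psma3l (0.990) and LOC497848 (0.990). Their own TBI vs Sham differences were 0.19 to 0.61, against 2.03 for Cxcl10.

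Cxcl12, a chemokine made constitutively by stroma, endothelium and neurons, had 2 probes, both above background on all 16 arrays, that gave different pictures. The brighter one (chr4:153510285-153510344, rn4, plus strand, described in the files as transcript variant 1) was at -0.18, 0.52 and 0.05 in Naive, -0.59 and -0.66 in Sham, and -0.95, -0.04 and -0.04 in TBI rats. The dimmer one (chr4:153516205-153516264, plus strand, transcript variant 3) was at -1.35, -1.20 and -1.76 in Naive, -1.34 and -1.19 in Sham, and -2.16, -2.08 and -2.41 in TBI rats. By the dimmer probe, all 3 TBI rats lay below all 5 uninjured rats, and by the brighter one the groups overlapped. TBI minus Sham was -0.96 (SE 0.36, adjusted p = 0.114) by the dimmer probe and 0.28 (SE 0.49, adjusted p = 0.753) by the brighter one, and neither passed.

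Cxcl13, the B cell chemokine, had the widest range of the set among uninjured rats. Its probe (chr14:15127379-15127438, rn4, minus strand) was at -7.58, -5.85 and -8.19 in Naive rats, of which Naive 2 alone was well above background. It was at -5.40 and -3.51 in Sham rats and at -4.88, -3.24 and -2.13 in TBI rats, all 5 above background. Both Sham rats lay above all Naive rats and overlapped the TBI rats. Cxcl13 rose in TBI vs Naive (fitted log2 difference 3.79, SE 0.79, adjusted p = 0.0205), a size that depends on 2 Naive values not above background, and differed by 1.04 in TBI vs Sham (SE 0.89, adjusted p = 0.493) and by 2.75 in Sham vs Naive (SE 0.89, adjusted p = 0.0792). Of the B cell markers Cd79b and Ms4a1, neither was above background in a Naive or Sham rat, and Cd79b was in TBI 2. Cxcr5, the receptor of Cxcl13, was above background on 0 of 16 arrays.

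Cxcl16, a transmembrane chemokine and scavenger receptor, was above background on all arrays (chr10:57296159-57296218, rn4, minus strand). It was at -3.63, -2.04 and -3.19 in Naive rats and -3.05 and -2.54 in Sham rats. In TBI rats it was at -2.01, -0.25 and -1.05. All 3 TBI rats lay above all 5 uninjured rats, TBI 1 only just above Naive 2. Cxcl16 rose 3.6-fold in TBI vs Naive (1.85, SE 0.46, adjusted p = 0.0385). Against Sham it was 3.23-fold higher (1.69, SE 0.51) and missed the threshold (adjusted p = 0.0559), which it passed after quantile normalization (1.66, adjusted p = 0.0415) and in the values of the authors' matrix (1.65, adjusted p = 0.0385).

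Cx3cl1 (chr19:10667029-10667088, rn4, minus strand) lay lower in all 3 TBI rats than in all 5 uninjured rats, and was the only member whose brightest probe did so. It was at 2.57, 2.34 and 2.40 in Naive, 2.47 and 2.95 in Sham, and 2.32, 1.90 and 1.78 in TBI rats, above background throughout. TBI 1, at 2.32, lay next to Naive 2, the lowest uninjured rat. The difference did not pass against Sham (-0.71, SE 0.33, adjusted p = 0.191) or Naive (-0.43, SE 0.29, adjusted p = 0.44). In the same comparison with Sham, 2 of 7 neuron markers passed, both lower. In TBI vs Naive 0 of these 7 passed, and in Sham vs Naive 2 did, both higher. After quantile normalization, 1 passed in TBI vs Sham and 1 in TBI vs Naive, both lower, and 0 in Sham vs Naive. The part of neuron signal in the Cx3cl1 values was not tested.

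**Figure D3:**
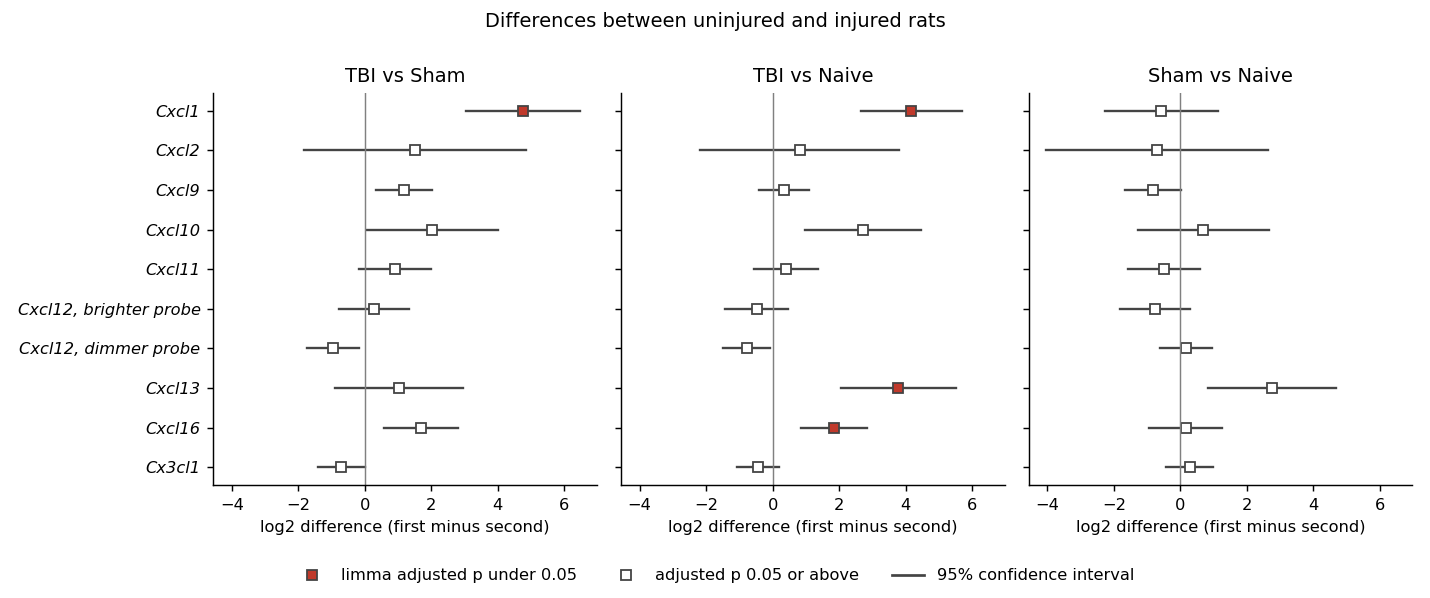
Log2 differences (x axis) of the 10 member probes (y axis) in 3 comparisons, with 95% confidence intervals from limma; red squares passed an adjusted p of 0.05. Cxcl1 passed against both Sham and Naive, Cxcl13 and Cxcl16 against Naive, and no member in Sham vs Naive; for Cxcl1, Cxcl2, Cxcl9, Cxcl10 and Cxcl11, 1 or more of the groups compared had no rat well above background.

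In TBI vs Naive, which adds anesthesia and surgery to the injury, 3 members passed, Cxcl1, Cxcl13 and Cxcl16, all higher, where 4.71% of all probes passed and 2.98% did so in that direction. Of the members, 4 lay higher in every TBI rat than in every Naive rat (12.8% of all probes did) and 1 lower (10.6%), and their median difference was 0.81, or 1.36 over 7 with bounds, against 0.04 for all probes. The calls of Cxcl13 and Cxcl16 each rested on single rats: both were lost without Naive 1 (3.60 and 1.51, adjusted p = 0.0781 and 0.151), Naive 3 (3.30 and 1.73, 0.0637 and 0.0943), TBI 2 (3.70 and 1.42, 0.0683 and 0.135) or TBI 3 (3.14 and 1.82, 0.0845 and 0.114), and both directions were kept. All 3 calls were made without the arrays rich in choroid plexus signal (Cxcl1 4.38, Cxcl13 4.47, Cxcl16 2.30) and none with the normexp correction (1.69, 1.69 and 1.47) or against Naive 3 alone, within its slide (4.07, 4.77 and 2.09). In Sham vs Naive, limma called 0 members against 8.08% of all probes, 1 member (Cxcl13) was at an unadjusted p under 0.05, and the t-test of the methods passed 0. Without Naive 2, Cxcl13 passed in that comparison (3.43, adjusted p = 0.0419).

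TBI 1 had the lowest signal of the TBI rats for Cxcl1, Cxcl9, Cxcl10, Cxcl11, Cxcl13, Cxcl16 and the brighter Cxcl12 probe, and the highest for Cx3cl1. For Cxcl1 it lay next to TBI 3 (-3.79 and -3.71), and Cxcl11 was not above background in any TBI rat. Il1b, the gene of the cytokine interleukin 1 beta, was at -7.52 in TBI 1 and at -3.56 and -4.59 in the other 2, and S100a8 at -2.94 against -0.02 and -1.60. Tnf was at -3.52, -3.38 and -3.64, with no such gap. Without TBI 1, Cxcl16 also passed against Sham (2.14, adjusted p = 0.0109), and so did Cxcl9 (adjusted p = 0.0126), with no Sham rat above background. The fit also called Cxcl11 there, but no TBI or Sham rat was above background, so nothing is read from it.

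Of the receptors of these ligands, 8 were on the array and 7 were tested. By limma, 0 of 7 passed in TBI vs Sham (1 at an unadjusted p under 0.05, 1 by the t-test of the methods) and 0 in TBI vs Naive (2 and 2). Cxcr2, the receptor of Cxcl1 and Cxcl2, was above background in TBI 2 alone of the uninjured and TBI rats. Cxcr4, the receptor of Cxcl12, was 1.13 higher in TBI vs Naive (SE 0.36, adjusted p = 0.0974) and 0.48 higher vs Sham (SE 0.41, adjusted p = 0.483). Cx3cr1, the receptor of Cx3cl1 and a microglial marker, was at -3.39, -2.97 and -3.29 in TBI rats, -3.39 and -3.52 in Sham rats and -3.89 to -3.74 in Naive rats, and did not pass (adjusted p = 0.44 vs Sham and 0.0595 vs Naive).

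Among 15 inducers and regulators on the array, 11 were tested. Tnf, which induces many chemokines through NF-kB, rose in TBI vs Sham (2.45, SE 0.56, adjusted p = 0.0207) and in TBI vs Naive (2.67, SE 0.50, adjusted p = 0.0135), and it was the only one of the list called against Sham. Irf9, which carries type I interferon signals to the nucleus, rose in TBI vs Naive (1.23, SE 0.22, adjusted p = 0.0121) and in Sham vs Naive (0.91, SE 0.25, adjusted p = 0.0413). Nfkbiz, a regulator of NF-kB target genes, rose at least 1.35-fold in TBI vs Naive (fitted 1.66, SE 0.40, adjusted p = 0.0351), with 2 of 3 TBI rats and no Naive rat above background, and did not pass after quantile normalization (adjusted p = 0.0577). Il1a was at least 2.56-fold lower in Sham vs Naive (fitted -1.82, SE 0.49, adjusted p = 0.04), with no Sham rat above background. Of 6 other CXC ligands on the array, 3 (Pf4, Cxcl14 and Cxcl17) were tested, and limma and the t-test of the methods each called 0 in TBI vs Sham and TBI vs Naive, with 0 at an unadjusted p under 0.05. Of the proteases that shed or cut these ligands, Adam10 rose at least 2.12-fold in Sham vs Naive (fitted 1.71, SE 0.36, adjusted p = 0.0152; 1.29, adjusted p = 0.0814 after quantile normalization), with both Sham rats, no Naive rat and 1 of 3 TBI rats above background.

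In TBI vs Sham the other marker lists gave 2 of 7 microglia and macrophage markers higher and 2 of 7 lower, 2 of 4 monocyte markers and 1 of 6 T and NK cell markers higher, and 1 of 5 endothelial and 1 of 3 red blood cell markers lower. No astrocyte (6), B cell (2) or choroid plexus (4) marker tested passed.

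The comparisons of the drug-treated rats with TBI ask what each compound changed after injury. The signals of most genes were higher in the drug arrays: the median difference over all tested probes was 0.79 in TBI+PMI, 0.99 in TBI+JM6 and 1.08 in TBI+E33, and 94.3%, 95.8% and 97.3% of probes were higher. Of the members, 2, 4 and 2 of 9 passed, all higher, beside 56.7%, 70.1% and 70.3% of all probes (56.7%, 69.9% and 70.2% in the higher direction), so each count lies below the background share. Quantile normalization, which forces a common distribution on the arrays, brought the all-probe median to -0.01 in TBI+PMI and closer to 0 in the others, and 9.96%, 13.9% and 10.4% of probes passed higher, with 2, 2 and 1 members. The members' median was 1.21, 1.12 and 1.63 (0.86, 1.12 and 1.36 with bounds), and 0.27, 0.39 and -0.01 after quantile normalization. Changes are therefore read against that shift, and none is a measure of a drug apart from the scan session.

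Cxcl11 showed the largest fitted difference of the set. Its log2 signal was -3.12, -2.96 and -3.34 in TBI+PMI rats, -3.17, -3.17 and -2.97 in TBI+JM6 rats and -3.20 and -2.68 in TBI+E33 rats. All 8 were well above background, at intensities of 172 to 215, and none of the 8 Naive, Sham and TBI arrays was. Against TBI it was at least 7.1-fold higher in TBI+PMI (adjusted p = 3.52e-05), 7.27-fold in TBI+JM6 (adjusted p = 1.71e-05) and 8.16-fold in TBI+E33 rats (adjusted p = 3.4e-05). It passed in all 3 groups after quantile normalization as well (adjusted p = 0.00521, 0.00517 and 0.0104). Its SD over the 8 drug arrays, 0.203, was smaller than that of most probes of like level, 9.69% of which had a smaller one. Cxcl2, Cxcl9, Cxcl10 and Cxcl11 were above background in every rat of a group only among the drug groups. Their probes were thus tested only through groups in which their signals were higher, and their p-values against TBI are a description.

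Cxcl9 was above background on all 8 drug arrays and on 4 of the 8 others. Its log2 signal was -3.29, -3.50 and -3.16 in TBI+PMI, -2.88, -2.91 and -3.20 in TBI+JM6 and -3.33 and -2.57 in TBI+E33 rats. Every drug-treated rat lay above the highest TBI rat, at -5.12. Among all probes, 62.3%, 72.8% and 84.7% lay higher in every TBI+PMI, TBI+JM6 and TBI+E33 rat than in every TBI rat. The Cxcl9 differences from TBI were 2.45 (SE 0.35, adjusted p = 0.000134), 2.77 (SE 0.35, adjusted p = 3.29e-05) and 2.82 (SE 0.39, adjusted p = 7.6e-05). They were 1.11, 1.24 and 1.15 after quantile normalization, where TBI+E33 no longer passed (adjusted p = 0.057). With the normexp correction, the TBI+PMI calls of Cxcl9 (0.67, adjusted p = 0.499) and Cxcl11 (adjusted p = 0.323) and the TBI+E33 calls of Cxcl9 (1.19, adjusted p = 0.128) and Cxcl11 (adjusted p = 0.26) were lost, and those of TBI+JM6 were kept.

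Cxcl10, which shares the receptor Cxcr3 with Cxcl9 and Cxcl11, did not pass against TBI in any drug group with all arrays in the fit. It was at -2.49, -2.89 and -3.86 in TBI+PMI, -4.86, -3.40 and -3.45 in TBI+JM6 and -4.28 and -1.83 in TBI+E33 rats, with TBI 2, at -2.88, among them. Its differences from TBI were 1.61 (SE 0.81, adjusted p = 0.106), 0.78 (SE 0.81, adjusted p = 0.392) and 1.63 (SE 0.91, adjusted p = 0.121), and 0.40, -0.80 and -0.01 after quantile normalization. Without TBI 2 it passed in TBI+PMI (2.51, adjusted p = 0.0132) and TBI+E33 (2.53, adjusted p = 0.0153), as did 12950 of 22807 and 16182 of 22804 of all probes. Without TBI+E33 1, which left 1 rat in that group, the TBI+E33 difference was 2.85.

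Cxcl16 and Cx3cl1 passed in TBI+JM6. Neither gene differed between the drug groups by the test, with TBI+PMI minus TBI+JM6 at -0.26 (95% interval -1.25 to 0.73) for Cxcl16 and -0.47 (-1.11 to 0.16) for Cx3cl1. Cxcl16 was at -0.42, 0.18 and -0.50 in TBI+PMI, -0.54, 0.27 and 0.31 in TBI+JM6 and -0.17 and -0.02 in TBI+E33 rats, with TBI 2 at -0.25 among them. It differed from TBI by 0.86 (SE 0.46, adjusted p = 0.123), 1.12 (SE 0.46, adjusted p = 0.0434) and 1.01 (SE 0.51, adjusted p = 0.0909), close to the all-probe shift. After quantile normalization the TBI+JM6 difference was 0.39 (adjusted p = 0.487), and without TBI 1, TBI 3, TBI+JM6 2 or TBI+JM6 3 it was 0.66, 1.15, 0.99 and 0.97 (adjusted p = 0.203, 0.0796, 0.114 and 0.128). Without TBI 2, Cxcl16 passed in TBI+PMI (1.28, adjusted p = 0.0304) and TBI+E33 (1.44, adjusted p = 0.0221), as did 12950 of 22807 and 16182 of 22804 of all probes.

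Cx3cl1 was at 2.60, 2.26 and 2.15 in TBI+PMI, 2.35, 2.47 and 3.60 in TBI+JM6 and 2.40 and 2.71 in TBI+E33 rats. The TBI+JM6 and TBI+E33 rats lay above all TBI rats (72.8% and 84.7% of all probes did), and TBI+JM6 3 far above the rest. The TBI+JM6 difference was 0.81 (SE 0.29, adjusted p = 0.0266), below the all-probe shift, and 0.28 after quantile normalization (adjusted p = 0.41). Without TBI+JM6 3 it was 0.41 (adjusted p = 0.127), without TBI 2 0.76 (adjusted p = 0.0634) and without TBI 3 0.70 (adjusted p = 0.0886).

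**Figure D4:**
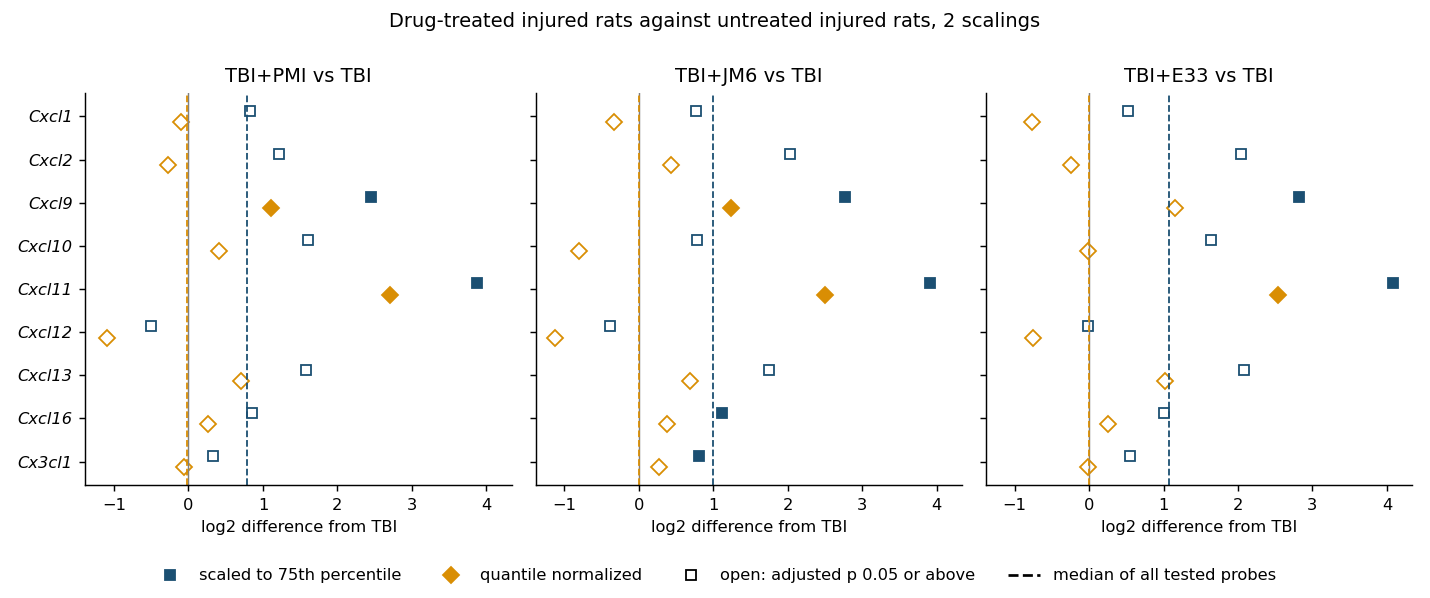
Log2 differences from TBI (x axis) of the 9 members (y axis) in the 3 drug groups, scaled to the 75th percentile (blue squares) or quantile normalized (orange diamonds); filled symbols passed an adjusted p of 0.05 and dashed lines are the medians of all tested probes. Within each scaling and each drug group, Cxcl11 lies farthest above TBI; TBI is not well above background for Cxcl2 and Cxcl11.

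Cxcl1 was at -1.04, -2.69 and -3.70 in TBI+PMI, -3.83, -2.72 and -1.03 in TBI+JM6 and -2.69 and -2.86 in TBI+E33 rats, which overlapped the TBI rats. Its differences from TBI were 0.82, 0.77 and 0.53 (SE 0.71, 0.71 and 0.79, adjusted p = 0.326, 0.332 and 0.549), with a 95% interval of -0.71 to 2.35 in TBI+PMI. After quantile normalization these Cxcl1 differences turned to -0.10, -0.34 and -0.77, none of which passed. Cxcl2 was at -2.42, -5.97 and -7.93 in TBI+PMI, -6.93, -5.81 and -1.14 in TBI+JM6 and -4.85 and -4.36 in TBI+E33 rats. It was above background in TBI+PMI 1, TBI+JM6 2 and 3 and both TBI+E33 rats, and did not pass (adjusted p = 0.459, 0.199 and 0.24), although in a fit of the TBI+E33 and TBI arrays alone it did (adjusted p = 0.00565). TBI+PMI 1 and TBI+JM6 3 held the 2 highest values of both genes.

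The same 2 rats held the 2 lowest Cxcl13 values of the drug-treated rats. Cxcl13 was at -2.55, -1.38 and -1.60 in TBI+PMI, -1.15, -1.02 and -2.83 in TBI+JM6 and -1.83 and -0.85 in TBI+E33 rats, and differed from TBI by 1.57, 1.75 and 2.08 (adjusted p = 0.106, 0.0643 and 0.0513). Without TBI 3 it passed in all 3 groups (2.22, 2.39 and 2.72, adjusted p = 0.0454, 0.0258 and 0.0218), and without TBI+JM6 3 in TBI+JM6 (2.33, adjusted p = 0.0332). Of all probes, 10337 of 22826, 13812 of 22826 and 14074 of 22823 passed without TBI 3, and 13372 of 22824 without TBI+JM6 3. With all arrays, the Cxcl13 differences after quantile normalization were 0.70, 0.69 and 1.02 (limma adjusted p = 0.613, 0.595 and 0.496). The B cell markers Cd79b and Ms4a1 were both above background in every drug-treated rat, and their part in these Cxcl13 values was not tested. Cxcl12 was at -1.16, -0.21 and -1.16 in TBI+PMI, -0.04, -0.28 and -1.87 in TBI+JM6 and -0.42 and -0.29 in TBI+E33 rats, lowest in TBI+JM6 3. By this probe it differed from TBI by -0.50, -0.39 and -0.01 (adjusted p = 0.335, 0.434 and 0.984), where 94.3% or more of all probes were higher. By the dimmer probe the Cxcl12 differences were 0.16, 0.37 and 0.81 (adjusted p = 0.674, 0.317 and 0.062), so with this scaling the probes differed in sign and neither passed. After quantile normalization both probes lay below TBI in all 3 groups, by -1.09, -1.12 and -0.75 for the brighter one. The dimmer one gave -0.60, -0.58 and -0.13, and neither passed.

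In TBI+PMI 1 and TBI+JM6 3, Nfkbia, the NF-kB inhibitor, was at 2.03 and 1.17 against -0.26 to 0.70 in the other 6 drug-treated rats. Zfp36, which destabilizes cytokine mRNAs, was at -5.56 and -5.09, the 2 values of 16 above background. Both genes come from the list of 15 inducers and regulators, which did not move as a whole. Nfkbiz was also highest in these 2 rats, at -4.06 and -3.42. Tnf was at -3.05 in both, against -3.58 to -2.71 in the other 6. Il1b was at -3.54 and -1.82, against -3.98 to -2.25. Choroid plexus markers set these rats apart from each other, at 151 in TBI+PMI 1 and 0.419 in TBI+JM6 3. The SD over the 8 drug arrays was 2.26 for Cxcl2 and 1.05 for Cxcl1, against medians of 0.551 and 0.302 for probes of like level. Of such probes, 99.8% and 98.4% had a smaller SD. Wide spread was not particular to Cxcl1 and Cxcl2, as these shares were 97.2% for Cxcl10, 96.6% for Cxcl13, 96.2% for Cxcl12 and 95.9% for Cx3cl1. These 2 rats were singled out after their Cxcl1 and Cxcl2 values were seen. The Cxcl9 and Cxcl11 calls were also made without them, with Cxcl9 at 2.43 in TBI+PMI and 2.87 in TBI+JM6.

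**Figure D5:**
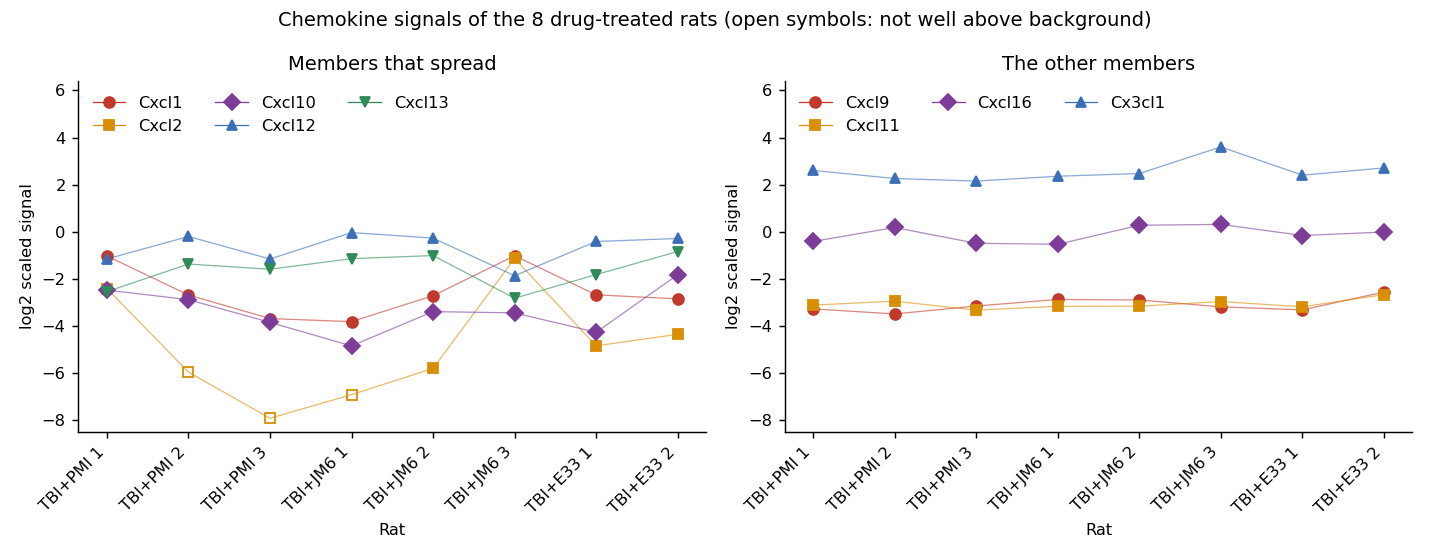
Log2 scaled signal (y axis) of the members in each of the 8 drug-treated rats (x axis), with lines joining the points of a gene as a guide to the eye only. Cxcl1 and Cxcl2 peak in TBI+PMI 1 and TBI+JM6 3, where Cxcl13 is lowest, and Cxcl9 and Cxcl11 stay between -3.50 and -2.57.

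The drug groups were also compared with each other, within 1 scan session. The TBI+PMI arrays shared 1 slide and the TBI+E33 arrays another, with TBI+JM6 arrays on each. Slide and drug are thus separated for TBI+PMI and TBI+E33 only through the TBI+JM6 arrays. With slide as a fixed block, the all-probe median of TBI+PMI minus TBI+E33 went from -0.26 to -0.03. PMI, JM6 and E33 are different compounds, E33 was given by another route than the oral gavage of PMI and JM6, and doses were not matched, so the values stand side by side. By limma, 0 of 9 members passed in TBI+PMI vs TBI+JM6, TBI+PMI vs TBI+E33 and TBI+JM6 vs TBI+E33, where 0.0131%, 0.11% and 0.0175% of all probes did, and 0 members in each were at an unadjusted p under 0.05 or passed the t-test of the methods. The intervals are wide. For Cxcl1 the TBI+PMI minus TBI+JM6 difference was 0.05 (95% interval -1.48 to 1.58), and for Cxcl2 it was -0.81 (-3.80 to 2.17).

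Several receptors and the proteases Adam10 and Adam17 were higher in the drug arrays, as most probes were. The receptor Cxcr1 varied between rats, at -1.05, -3.83 and -2.55 in TBI and -0.08, -1.19 and -3.76 in TBI+PMI rats. It was at -3.62, -4.21 and -2.07 in TBI+JM6 and -4.48 and -3.15 in TBI+E33 rats, on average below TBI in both. Of the 7 receptors tested, 4 passed in TBI+PMI vs TBI, 5 in TBI+JM6 vs TBI and 4 in TBI+E33 vs TBI, all higher, beside 56.7%, 70.1% and 70.3% of all probes, and 0 in each after quantile normalization. Cx3cr1 differed by 0.90, 1.22 and 1.14 (SE 0.16, 0.16 and 0.18), and by 0.05, 0.21 and 0.03 after quantile normalization. Cxcr3, the receptor of Cxcl9, Cxcl10 and Cxcl11, was above background in all 8 drug-treated rats and in Sham 2. Adam10 and Adam17 passed in all 3 comparisons (0.85 to 2.39) and in none after quantile normalization. T and NK cell markers summed to 0.143 to 0.302 in TBI rats and 0.507 to 0.861 in drug-treated rats, and monocyte markers to 9.56 to 17.0 in the latter. Of these 7 T and NK cell markers, 2 to 4 were above background on the TBI arrays and 4 to 7 on the drug arrays. By limma, 2, 5 and 5 of the 6 tested passed higher in TBI+PMI, TBI+JM6 and TBI+E33. After quantile normalization 0, 1 and 0 did, and 1 was lower in TBI+PMI. Of 4 monocyte markers, 2, 4 and 2 passed higher, and 0, 1 and 0 after quantile normalization. The part of T and NK cell markers in the Cxcl9 and Cxcl11 differences was not tested.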

How the data were processed

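Total RNA of rat hippocampus was amplified and hybridised to single-colour Agilent 4x44K rat arrays, 1 sample per array. The authors deposited Feature Extraction scanner files, whose processed intensities are background-subtracted per the file headers, and a matrix of linear ratios of each intensity to the 75th percentile of its array, which was used as an alternative. The deposited flags for signal well above background, saturation and outliers were used as given. Intensities were averaged over unflagged spots of a probe, divided by the 75th percentile of the probes well above background on the array, and taken to log2. Of 42877 non-control spots, 28977 probes had 1 spot and 1390 had 10. A probe was tested where it was well above background on every array of 1 or more groups (22827 of 30367 probes). Tests were by limma 3.58.1 in R 4.3.3, 1 model over 16 arrays with 10 residual degrees of freedom, two-sided, with Benjamini-Hochberg adjustment over all tested probes at 0.05. A fold is written as "at least" where one group was not well above background, against the higher of its signal and the lowest signal called above background on each of those arrays. The brighter of the Cxcl12 probes stands for the gene.

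Probe positions are those of the files (rn4). Promoters are from RefSeq (GRCr8). The text names the 9 members, genes of lists on receptors, ligands, proteases, regulators and cell markers, and the 5 probes most like Cxcl1 and Cxcl10. Some genes of these lists are not reported here. The members and lists were chosen with earlier results of these data known. Alternatives changed the scaling, background correction, filter, test, slide or replicate block and the arrays included. The tests that omit 2 or 3 arrays together were chosen after seeing the data. The code was tested on simulated data. Protein sequences and probe sequences were not used here.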

Additional observations from a re-analysis of the deposited data

How the results depend on the processing

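No member that passed changed direction under the alternatives that gave it a value, while some that did not pass did, such as Cxcl1 in the drug comparisons after quantile normalization. The count of members passing in TBI vs Sham, 1, was 2 with the 75th percentile over all probes, quantile normalization, the authors' matrix or the methods' t-test (there with Cxcl2, below background in both groups), 3 with slide as a random block, and 0 with normexp, the compared groups alone, the adjusted t-test, slide as a fixed block or without the 3 arrays rich in choroid plexus signal. With probes above background on all 16 arrays, Cxcl1, Cxcl2, Cxcl9, Cxcl10, Cxcl11 and Cxcl13 were not tested, so that 1 was left in TBI vs Naive, 0 in TBI+PMI vs TBI, 2 in TBI+JM6 vs TBI and 0 in TBI+E33 vs TBI with no call lost among those tested. In TBI vs Naive, 3 became 0 with normexp, the compared groups alone, the adjusted t-test, slide as a fixed block or within 1 slide, which holds 1 Naive array. In TBI+JM6 vs TBI, 4 became 2 with the 75th percentile over all probes, quantile normalization, the authors' matrix, a loess trend on GC content removed, the compared groups alone or either t-test. In TBI+PMI vs TBI, 2 became 0 with normexp, and in TBI+E33 vs TBI, 2 became 1 with quantile normalization, 0 with normexp and 4 with slide as a random block. Replicate numbers did not pair the samples (r of deviations -0.185 to 0.182 over 22 same-number pairs), and the replicate block gave 2 in TBI vs Sham, 4 in TBI+PMI vs TBI and 4 in TBI+E33 vs TBI. Leaving out each array in turn gave 1 to 4 in TBI vs Sham (4 without TBI 1, of which Cxcl11 was below background in both groups), 1 to 4 in TBI vs Naive (1 without Naive 1, Naive 3, TBI 2 or TBI 3, and 4 without TBI 1), 0 to 1 in Sham vs Naive (1 without Naive 2), 2 to 4 in TBI+PMI vs TBI and in TBI+E33 vs TBI (4 without TBI 2 in both) and 3 to 4 in TBI+JM6 vs TBI. The number of arrays, and signal near background for Cxcl2, Cxcl9, Cxcl10 and Cxcl11, limit the precision. The cause of these changes was not tested.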
